A study of Mus musculus with 13 samples.

Results

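The subject here is the set of nuclear genes for mitochondrial ribosomal proteins: 76 genes, 47 with symbols of the large subunit (Mrpl) and 29 with symbols of the small subunit (Mrps), out of 36172 gene entries in the count table. Members are the protein-coding genes whose symbol is Mrpl or Mrps followed by a number and at most one letter. The 4 pseudogene symbols of the same family hold 0 counts and were left out. All 76 members passed the filter on low counts, and their counts per library ran from 201 (Mrpl47) to 5167 (Mrpl42).

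Gene expression was measured by RNA sequencing of left ventricle taken outside the ischaemic zone of C57BL/6JO1aHsd mice that were 8 to 10 weeks old when treatment started. One group had a myocardial infarction (MI) and received FG-3149, a monoclonal antibody against connective tissue growth factor, at 10 mg/kg (n = 5). The second had an MI and received a control IgG at 10 mg/kg (n = 5). The third had sham surgery with no treatment recorded (n = 3). Here n counts libraries. The labels do not tie each library to an animal, and a heart below means a library. The time point is labelled 1W+6W for every group, which the labels do not explain. The sham group thus differs from the IgG group in surgery and in antibody, and these cannot be told apart.

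The mitochondrial ribosome makes the few proteins encoded in mitochondrial DNA, all of which are subunits of the respiratory chain and the ATP synthase. Its small subunit binds the messenger RNA and decodes it, and its large subunit joins the amino acids. The ribosomal RNAs come from mitochondrial DNA, whereas every protein of the ribosome is encoded in the nucleus, translated in the cytosol and imported. Many members descend from bacterial ribosomal proteins, and the others were added during the evolution of mitochondria. Heart muscle depends on respiration, and inherited defects of several members, among them the human counterparts of Mrpl3, Mrpl44 and Mrps22, are known for cardiomyopathy. A symbol does not always give the place of a protein: in resolved structures the products of Mrps18a and Mrps30 sit in the large subunit, and the product of Mrps36 is known as a part of the alpha-ketoglutarate dehydrogenase complex.

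Library totals were 10954920 to 12794823 estimated counts in FG-3149 hearts, 13084735 to 17567238 in IgG hearts and 12025880 to 14999813 in sham hearts, so the totals of the MI groups did not overlap. The ribosomal precursor RNA Rn45s took 0.20% to 2.86% of counts in FG-3149 hearts, 0.67% to 1.94% in IgG hearts and 0.28% to 0.33% in sham hearts. Levels per library are given as CPM, counts scaled to library size, after scaling for composition. All 10 markers of cardiac muscle cells were detected, and they summed to 80088 to 86827 CPM in FG-3149 hearts, 76051 to 83278 in IgG hearts and 90552 to 98821 in sham hearts. A sum is led by the most abundant markers, and the 10 did not all move one way. For IgG over sham 5 passed the edgeR test described below, all lower, and 4 had a log2 fold change above 0. The same counts held for FG-3149 over sham. Of all genes tested, 15.9% and 13.9% were called lower in these comparisons. All 9 fibroblast markers summed to 3608 to 4083 CPM in FG-3149 hearts, 3851 to 5400 in IgG hearts and 2415 to 2570.3 in sham hearts. The 7 macrophage markers found by symbol in the count table, fewer than were chosen, summed to 419 to 689 CPM in FG-3149 hearts. Their sums were 399 to 600.2 CPM in IgG hearts and 294 to 306 in sham hearts. Atrial markers, of which 1 of 3 passed the filter, summed to at most 3.1 CPM in FG-3149 hearts, 30.7 in IgG hearts and 3.4 in sham hearts. In bulk tissue, fewer cells of a type and less RNA per cell cannot be told apart, and the part of these shifts in the results on the ribosomal proteins was not tested.

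Members differed widely in level. On the scale of RPKM, reads scaled to transcript length and library size, the median member of the large subunit had 51.9 and the median member of the small subunit 47.4, against 6.81 for all genes tested. The highest large-subunit level was that of Mrpl42, with 444 ± 34.3 RPKM in FG-3149 hearts, 424 ± 20 in IgG hearts and 513 ± 23.2 in sham hearts. Mrpl30 came next, with 230.1 ± 10.1 RPKM in FG-3149 hearts, 226 ± 14.5 in IgG hearts and 251 ± 21.7 in sham hearts. Mrpl12, whose product forms the flexible stalk that recruits translation factors and is also known to bind the mitochondrial RNA polymerase, had 216 ± 11.5 RPKM in FG-3149 hearts, 214 ± 7.34 in IgG hearts and 212 ± 7.69 in sham hearts. For Mrpl30 and Mrpl12 the intervals of mean ± SD overlapped in both MI groups and not in sham hearts. At the low end were Mrpl17 with 7.41 ± 0.465 RPKM in FG-3149 hearts, 6.89 ± 0.546 in IgG hearts and 6.94 ± 0.164 in sham hearts, Mrpl19 with 9.15 ± 0.628 RPKM in FG-3149 hearts, 8.63 ± 0.354 in IgG hearts and 9.54 ± 0.573 in sham hearts and Mrpl35 with 13.0 ± 0.903 RPKM in FG-3149 hearts, 11.7 ± 0.991 in IgG hearts and 13.5 ± 0.0436 in sham hearts.

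In the small subunit the highest level was that of Mrps21, the homologue of a small bacterial protein, with 199 ± 14.5 RPKM in FG-3149 hearts, 184 ± 6.96 in IgG hearts and 225 ± 9.32 in sham hearts. Mrps23, specific to mitochondria, followed with 156 ± 6.73 RPKM in FG-3149 hearts, 151 ± 6.88 in IgG hearts and 124 ± 3.5 in sham hearts. Mrps16 had 91.8 ± 4.76 RPKM in FG-3149 hearts, 88.9 ± 5.23 in IgG hearts and 96.4 ± 9.9 in sham hearts. Mrps36 had 94.3 ± 3.69 RPKM in FG-3149 hearts, 82.1 ± 6.45 in IgG hearts and 102 ± 2.41 in sham hearts, and the intervals of mean ± SD of Mrps16 and Mrps36 overlapped in each group. The lowest levels were those of Mrps25 with 8.74 ± 0.512 RPKM in FG-3149 hearts, 8.65 ± 0.389 in IgG hearts and 8.81 ± 0.174 in sham hearts, Mrps22 with 20.1 ± 2.19 RPKM in FG-3149 hearts, 18.03 ± 1.55 in IgG hearts and 21.3 ± 0.937 in sham hearts and Mrps2 with 20.8 ± 1.01 RPKM in FG-3149 hearts, 20.2 ± 1.14 in IgG hearts and 22.2 ± 1.56 in sham hearts. The changes in the gene level of members between groups, described below, were small beside this order: none reached 2-fold.

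Nuclear genes for mitochondrial proteins are known to share promoter elements, so the sequence around the start of 5 members is shown. Mrps24 and Mrpl34 rose with FG-3149, Mrpl52 was higher than sham in each MI group, and Mrpl39 and Mrps18a were lower than sham in each. Each run covers the 250 bases before and the first 50 bases of the gene on its own strand, from RefSeq on GRCm38.p6, the assembly of mm10. Capitals mark the letters searched on both strands: CCGGAAG, a core bound by ETS factors such as GABP, then the palindrome bound by NRF1, spelled by the capitals of Mrpl39, and a motif of YY1, spelled by the longer capitals of Mrps18a. Position 1 is the first base of the gene in RefSeq and position -1 the base before it. RefSeq starts need not be those of the count table. Mrpl39 starts there at chr16:84735302, among the bases printed before position 1.
Mrps24 (chr11:5707652-5707951, minus strand): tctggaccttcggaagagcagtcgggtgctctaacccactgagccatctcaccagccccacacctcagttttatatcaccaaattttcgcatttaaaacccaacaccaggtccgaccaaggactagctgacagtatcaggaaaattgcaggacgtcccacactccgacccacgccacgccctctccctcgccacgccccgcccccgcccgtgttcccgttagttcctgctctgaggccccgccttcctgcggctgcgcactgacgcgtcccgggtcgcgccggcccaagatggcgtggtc
Mrpl34 (chr8:71464676-71464975, plus strand): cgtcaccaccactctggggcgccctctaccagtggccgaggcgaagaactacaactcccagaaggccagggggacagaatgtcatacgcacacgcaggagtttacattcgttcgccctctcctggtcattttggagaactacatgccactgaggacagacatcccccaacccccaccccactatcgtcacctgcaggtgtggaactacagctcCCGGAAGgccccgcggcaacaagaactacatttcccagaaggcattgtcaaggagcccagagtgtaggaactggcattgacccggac
Mrpl52 (chr14:54426659-54426958, plus strand): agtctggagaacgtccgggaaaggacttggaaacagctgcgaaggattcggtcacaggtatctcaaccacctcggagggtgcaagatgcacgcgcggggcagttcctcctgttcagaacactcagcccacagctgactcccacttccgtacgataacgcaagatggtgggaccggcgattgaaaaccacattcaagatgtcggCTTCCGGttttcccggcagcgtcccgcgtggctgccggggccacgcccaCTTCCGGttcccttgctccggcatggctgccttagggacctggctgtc
Mrpl39 (chr16:84735195-84735494, minus strand): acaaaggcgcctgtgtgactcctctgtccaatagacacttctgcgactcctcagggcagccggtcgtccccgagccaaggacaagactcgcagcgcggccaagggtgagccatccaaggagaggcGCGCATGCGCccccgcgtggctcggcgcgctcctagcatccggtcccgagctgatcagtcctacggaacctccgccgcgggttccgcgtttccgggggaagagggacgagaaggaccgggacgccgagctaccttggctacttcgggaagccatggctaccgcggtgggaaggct
Mrps18a (chr17:46110754-46111053, plus strand): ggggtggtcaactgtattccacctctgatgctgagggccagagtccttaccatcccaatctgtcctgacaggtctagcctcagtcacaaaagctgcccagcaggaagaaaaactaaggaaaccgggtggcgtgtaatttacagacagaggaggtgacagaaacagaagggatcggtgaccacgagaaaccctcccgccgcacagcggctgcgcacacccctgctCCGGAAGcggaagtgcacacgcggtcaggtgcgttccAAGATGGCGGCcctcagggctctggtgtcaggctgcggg
The ETS core begins at position -37 in Mrpl34, at -47 and 3 on the opposite strand in Mrpl52, and at -26 in Mrps18a, which also holds the YY1 letters at position 12. Mrpl39 holds the NRF1 palindrome at position -125, and Mrps24 holds none of the 3 strings.

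A RefSeq promoter was matched for 67 of the 76 members. The ETS core was present in 24 of them (35.8%), against 18.5% of the 9940 promoters of all genes tested. The NRF1 palindrome occurred in 3 members (4.5%; Mrpl9, Mrpl32 and Mrpl39), against 2.2%, and the YY1 letters in 5 (7.5%; Mrpl35, Mrpl37, Mrps11, Mrps18a and Mrps27), against 1.7%. TATAAA, the core of the TATA box, was found in 5 (7.5%; Mrpl16, Mrpl46, Mrpl48, Mrps17 and Mrps24), against 9.2%. The ETS core was thus the most common of the 4 strings in members, and a match is a string of letters, not a measured site of binding. Some RefSeq starts lie away from those of the count table. In that table Mrpl20 starts at chr4:155803618, outside its RefSeq window of chr4:155802628-155802927. Mrps21 starts at chr3:95870619, outside its window of chr3:95871465-95871764.

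Many members share a start region with another gene. A gene on the opposite strand started within 1000 bases of the start of 27 members (35.5%), against 15.2% of 13414 genes tested with a position. One such pair holds 2 members: Mrpl46 and Mrps11 on chromosome 7 start 42 bases apart. Mrps34 starts 33 bases from Eme2, Mrpl47 starts 308 bases from Ndufb5, a subunit of respiratory complex I, and Mrps12 starts 187 bases from Sars2, the mitochondrial seryl-tRNA synthetase. Another gene overlaps 8 members (10.5%; Mrpl24, Mrpl41, Mrpl48, Mrpl49, Mrpl53, Mrps6, Mrps25 and Mrps27), against 17.2% of genes tested. Their counts are uncertain, since the strand setting of the counting is not given in the sources used here, and Mrpl53 and Mrps6 overlap a gene on the same strand.

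MI with IgG was compared with sham surgery to ask how the family stood after infarction in muscle outside the infarct. Transcripts of 23 members were lower in IgG hearts than in sham hearts and those of 4 were higher, while 49 did not pass the test. The changes were small, from a log2 fold change of -0.41 for Mrps35 to 0.29 for Mrpl52. By subunit, 14 of 47 large-subunit members fell and 3 rose, and 9 of 29 small-subunit members fell and 1 rose, at an adjusted p under 0.05 (edgeR quasi-likelihood test, Benjamini-Hochberg adjustment over 13434 genes). Of all genes tested, 33.7% were called, 15.9% lower and 17.8% higher. The median log2 fold change was -0.11 in the large subunit and -0.15 in the small subunit, against -0.00 over all genes. Without sham replicate 2, 10 large-subunit and 6 small-subunit members were called, and without IgG replicate 4, 6 small-subunit members.

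Mrps35 and Mrps31, small-subunit proteins without a bacterial counterpart, were among the members that fell most. Mrps35 had 75.8, 57.0, 64.7, 59.8 and 66.9 CPM in IgG hearts, against 84.7, 88.2 and 84.8 CPM in sham hearts. The groups did not overlap, and the log2 fold change was -0.41 ± 0.08 (SE), adjusted p = 0.000455. For Mrps31 the values were 46.5, 41.8, 44.4, 44.1 and 44.0 CPM in IgG hearts, against 55.6, 59.9 and 57.0 CPM in sham hearts, again without overlap, and the log2 fold change was -0.38 ± 0.06 (SE), adjusted p = 0.00019. Mrps21 had 74.4, 69.5, 77.9, 72.1 and 76.9 CPM in IgG hearts, against 95.0, 89.5 and 90.8 CPM in sham hearts. Every IgG heart lay below every sham heart, with a log2 fold change of -0.31 ± 0.07 (SE), adjusted p = 0.00141. Mrps22, tied to human cardiomyopathy, had 23.9, 19.5, 23.6, 20.7 and 20.9 CPM in IgG hearts, against 24.6, 27.4 and 26.0 CPM in sham hearts. The groups were apart, with a log2 fold change of -0.26 ± 0.10 (SE), adjusted p = 0.0406, and the call was lost in 8 of 19 alternative analyses, among them those without any one sham heart or without IgG replicate 2, 4 or 5.

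Mrps36, the dehydrogenase component that carries a ribosomal symbol, fell as well. It had 63.5, 55.9, 59.5, 59.5 and 52.6 CPM in IgG hearts, against 71.3, 76.4 and 72.4 CPM in sham hearts, without overlap and with a log2 fold change of -0.33 ± 0.06 (SE), adjusted p = 0.000516. Mrps18a, whose product sits in the large subunit, had 57.8, 59.4, 58.4, 55.1 and 57.9 CPM in IgG hearts, against 65.3, 72.7 and 69.5 CPM in sham hearts. Its groups did not overlap and its log2 fold change was -0.26 ± 0.07 (SE), adjusted p = 0.00771. It missed the threshold without sham replicate 2 (adjusted p = 0.0548). Its relatives of the same protein family did not pass the test, Mrps18b with a log2 fold change of 0.03 ± 0.07 (SE), adjusted p = 0.813, and Mrps18c with -0.03 ± 0.08 (SE), adjusted p = 0.822. Whether the 3 genes differ from one another in their response was not tested.

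In the large subunit Mrpl23, whose bacterial homologue lies at the exit of the tunnel for the new protein, had 48.3, 40.1, 43.0, 44.0 and 41.0 CPM in IgG hearts, against 55.9, 58.2 and 55.4 CPM in sham hearts. No IgG heart reached the lowest sham heart, and the log2 fold change was -0.39 ± 0.07 (SE), adjusted p = 0.000447. Mrpl39, specific to mitochondria, had 59.1, 53.7, 58.2, 56.5 and 57.6 CPM in IgG hearts, against 66.9, 77.8 and 74.5 CPM in sham hearts. Here too the groups were apart, with a log2 fold change of -0.36 ± 0.06 (SE), adjusted p = 0.0001. Mrpl1, the homologue of the protein of the mobile stalk near the tRNA exit site, had 41.9, 35.5, 37.9, 37.8 and 42.6 CPM in IgG hearts, against 47.5, 49.0 and 49.9 CPM in sham hearts. The groups were apart, with a log2 fold change of -0.32 ± 0.08 (SE), adjusted p = 0.00388. Mrpl42, the member with the highest RPKM, had 286, 258, 296, 275 and 285 CPM in IgG hearts, against 328, 341 and 358 CPM in sham hearts. It fell by 18.3% (-0.29 ± 0.07 (SE), adjusted p = 0.00287 on the log2 scale), with no overlap.

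The other large-subunit members with the lowest values were Mrpl47 (log2 fold change -0.30 ± 0.10 (SE), adjusted p = 0.0236) and Mrpl28 (-0.26 ± 0.06 (SE), adjusted p = 0.0035). Mrpl47 has the lowest count of any member in a library. It had 23.4, 19.1, 22.1, 17.97 and 19.4 CPM in IgG hearts, against 26.6, 24.4 and 24.1 CPM in sham hearts, and its call was lost without sham replicate 1 or 2 or without IgG replicate 2 or 4. Mrpl28, a homologue of a bacterial protein, had 116, 103, 113, 106 and 99.3 CPM in IgG hearts, against 125, 132 and 129 CPM in sham hearts. Here the groups were apart. Mrpl3 and Mrpl44, the other members tied to cardiomyopathy, did not pass the test, with log2 fold changes of -0.10 ± 0.06 (SE), adjusted p = 0.199 and -0.17 ± 0.07 (SE), adjusted p = 0.0693. In 3 of 19 alternative analyses Mrpl44 was called lower.

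In the other direction 4 members were higher, and 3 of them are large-subunit proteins specific to mitochondria. Mrpl52 had 21.0, 23.0, 26.1, 24.04 and 23.1 CPM in IgG hearts, against 19.0, 17.5 and 21.1 CPM in sham hearts. The lowest IgG heart lay just under the highest sham heart, and the log2 fold change was 0.29 ± 0.09 (SE), adjusted p = 0.0133. Mrpl53 had 57.7, 61.6, 66.6, 66.2 and 64.3 CPM in IgG hearts, against 54.9, 51.7 and 56.4 CPM in sham hearts and Mrpl54 had 42.8, 43.0, 47.2, 42.9 and 43.2 CPM in IgG hearts, against 35.9, 35.6 and 42.2 CPM in sham hearts. Both were apart by group, with log2 fold changes of 0.22 ± 0.06 (SE), adjusted p = 0.0131 and 0.21 ± 0.07 (SE), adjusted p = 0.0273. Mrps23, the second most abundant small-subunit transcript, had 182, 196, 210.1, 192 and 196 CPM in IgG hearts, against 162, 167 and 155 CPM in sham hearts. Every IgG heart lay above every sham heart, with a log2 fold change of 0.28 ± 0.06 (SE), adjusted p = 0.00145. Without sham replicate 2 none of the 3 large-subunit members passed the test, and Mrpl54 also missed it without sham replicate 1 or IgG replicate 3, whereas Mrps23 stayed called in every alternative analysis.

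By class, Mrps18a and Mrps30 being counted in the large subunit as mitochondria-specific proteins and Mrps36 left out, both kinds of protein held members that fell. Among large-subunit proteins 9 of 30 bacterial homologues fell and 0 rose, and 6 of 19 mitochondria-specific proteins fell and 3 rose. In the small subunit, 4 of 16 bacterial homologues fell and 0 rose, and 3 of 10 mitochondria-specific proteins fell and 1 rose. Of all genes tested, 15.9% fell and 17.8% rose. The median log2 fold change of bacterial homologues was -0.11 in the large and -0.15 in the small subunit, and that of mitochondria-specific proteins -0.12 in the large and -0.01 in the small subunit. Libraries of the groups did not overlap for 31 members that were lower and 3 that were higher in IgG hearts, and 17.7% and 18.2% of all genes tested showed that in the same directions.

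**Figure D1:**
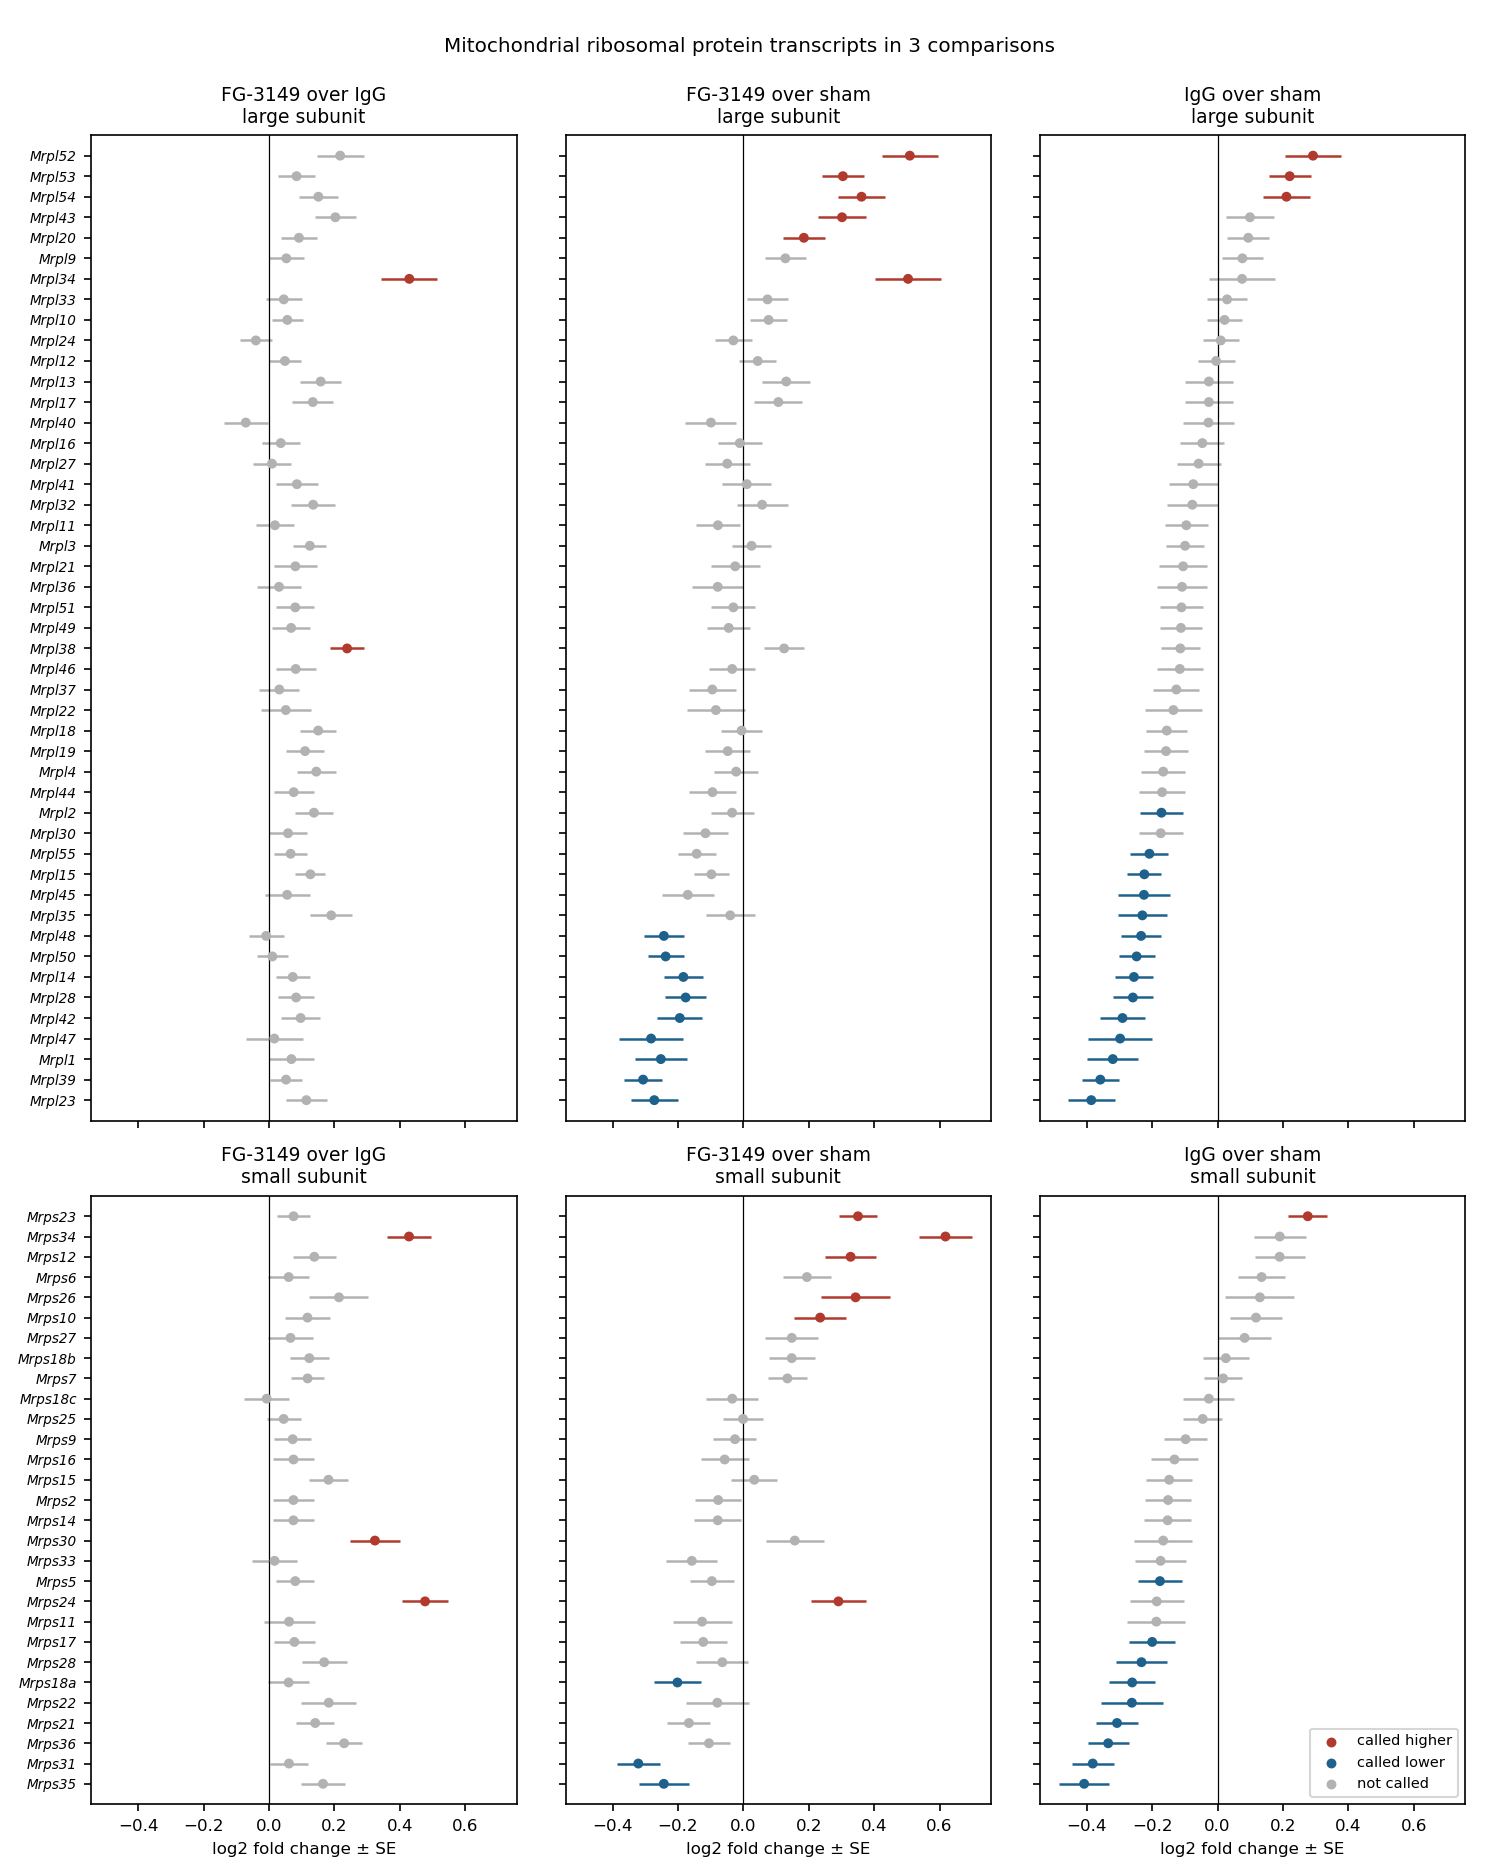
Log2 fold change with its standard error (x axis) of each of the 47 large-subunit (top) and 29 small-subunit members (bottom) in 3 comparisons, with members in the order of IgG over sham. Columns are FG-3149 over IgG, FG-3149 over sham and IgG over sham. In the left column 44 of 47 and 28 of 29 points lie above 0, and in the right column 37 of 47 and 20 of 29 lie below 0.

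FG-3149 was compared with IgG, both after MI, to ask what blocking connective tissue growth factor did to the family. In FG-3149 hearts 5 members were higher and 0 were lower: Mrpl34 and Mrpl38 of 47 in the large subunit, and Mrps24, Mrps34 and Mrps30 of 29 in the small subunit. In all genes tested, 1.07% were called in this comparison, 0.916% higher and 0.156% lower. Small values in the same direction were found across the family. The log2 fold change was above 0 for 44 of 47 large-subunit and 28 of 29 small-subunit members. Of all 13434 genes tested, 6168 were above 0. The median was 0.08 in each subunit, against -0.01 over all genes. Single members mostly did not pass the edgeR test, and 25 of 76 had an unadjusted p under 0.05, against 1849 of 13434 genes tested. Libraries of the groups did not overlap for 4 members that were higher and 0 that were lower, against 1.9% and 1.24% of all genes tested. Summed over the large subunit the libraries overlapped, at 3191 to 3701 CPM in FG-3149 hearts and 3054 to 3322 CPM in IgG hearts. So did the small-subunit sums, at 1525 to 1784 CPM in FG-3149 hearts and 1433 to 1549 CPM in IgG hearts. Members share these libraries, so their signs are not independent of each other.

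The response of Mrps24, a bacterial homologue at the entry site of the messenger RNA, ranked 13th by p among all genes tested. Mrps24 (chr11:5703983-5707699, mm10) had 52.2, 56.1, 72.0, 61.1 and 58.3 CPM in FG-3149 hearts, against 41.2, 42.2, 47.8, 42.3 and 41.5 CPM in IgG hearts. All FG-3149 hearts lay above all IgG hearts. The log2 fold change was 0.48 ± 0.07 (SE), adjusted p = 0.00252, a rise of 39.2%. In sham hearts the values were 49.7, 49.6 and 47.6 CPM, below every FG-3149 heart and overlapping with IgG replicate 3.

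Mrps34, a small-subunit protein specific to mitochondria whose loss in humans causes Leigh syndrome, ranked 18th. Mrps34 (chr17:24895120-24896273, mm10) had 56.4, 56.8, 72.3, 66.0 and 62.9 CPM in FG-3149 hearts, against 46.3, 42.6, 50, 48.2 and 46.3 CPM in IgG hearts. The groups did not overlap, and the log2 fold change was 0.43 ± 0.07 (SE), adjusted p = 0.00339, a rise of 34.5%. Sham hearts had 39.1, 40.7 and 43.0 CPM, below every FG-3149 heart and overlapping with IgG replicate 2. Of the 5 calls, those of Mrps24 and Mrps34 held in all 21 alternative analyses, including those without any single library.

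Mrpl34, the homologue of a short bacterial protein, had 42.8, 47.1, 61.0, 52.2 and 53.2 CPM in FG-3149 hearts, against 33.9, 36.0, 44.2, 36.5 and 39.4 CPM in IgG hearts. IgG replicate 3 lay above FG-3149 replicate 1, so the groups overlapped. The log2 fold change was 0.43 ± 0.09 (SE), adjusted p = 0.0186. It missed the threshold without IgG replicate 2 (adjusted p = 0.0578), without FG-3149 replicate 4 (0.0546) or without FG-3149 replicate 5 (0.0525). Mrpl38, specific to mitochondria, had 53.6, 49.8, 54.7, 56.9 and 53.4 CPM in FG-3149 hearts, against 48.2, 44.5, 43.8, 44.1 and 46.8 CPM in IgG hearts. Its groups were apart, with a log2 fold change of 0.24 ± 0.05 (SE), adjusted p = 0.031. Mrps30, a large-subunit protein by structure, had 38.0, 43.0, 51.3, 43.2 and 40.4 CPM in FG-3149 hearts, against 37.8, 31.6, 33.8, 32.8 and 36.6 CPM in IgG hearts. The lowest FG-3149 heart stood just above the highest IgG heart, and the log2 fold change was 0.32 ± 0.08 (SE), adjusted p = 0.0469. The calls of Mrpl38 and Mrps30 were lost in 12 and 13 of 21 alternative analyses. Among these were the analyses without IgG replicate 2, 3, 4 or 5 and without FG-3149 replicate 3, 4 or 5 for both genes, and without FG-3149 replicate 2 for Mrps30.

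Mrps36 lay next to the threshold, with 63.4, 65.8, 71.5, 71.2 and 69.5 CPM in FG-3149 hearts, against 63.5, 55.9, 59.5, 59.5 and 52.6 CPM in IgG hearts and a log2 fold change of 0.23 ± 0.06 (SE), adjusted p = 0.0524. The highest IgG heart lay just above the lowest FG-3149 heart. In 5 of 21 alternative analyses Mrps36 was called higher. The members with a role in cardiomyopathy did not pass the test: the log2 fold change was 0.12 ± 0.05 (SE), adjusted p = 0.277 for Mrpl3, 0.08 ± 0.06 (SE), adjusted p = 0.64 for Mrpl44 and 0.18 ± 0.08 (SE), adjusted p = 0.345 for Mrps22. Nor did Mrpl12 (0.05 ± 0.05 (SE), adjusted p = 0.718), Mrps18a (0.06 ± 0.06 (SE), adjusted p = 0.727), Mrps18b (0.12 ± 0.06 (SE), adjusted p = 0.377) or Mrps18c (-0.01 ± 0.07 (SE), adjusted p = 0.978). In this comparison 4 of the 76 members had a fitted value below 0: Mrpl24, Mrpl40, Mrpl48 and Mrps18c.

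**Figure D2:**
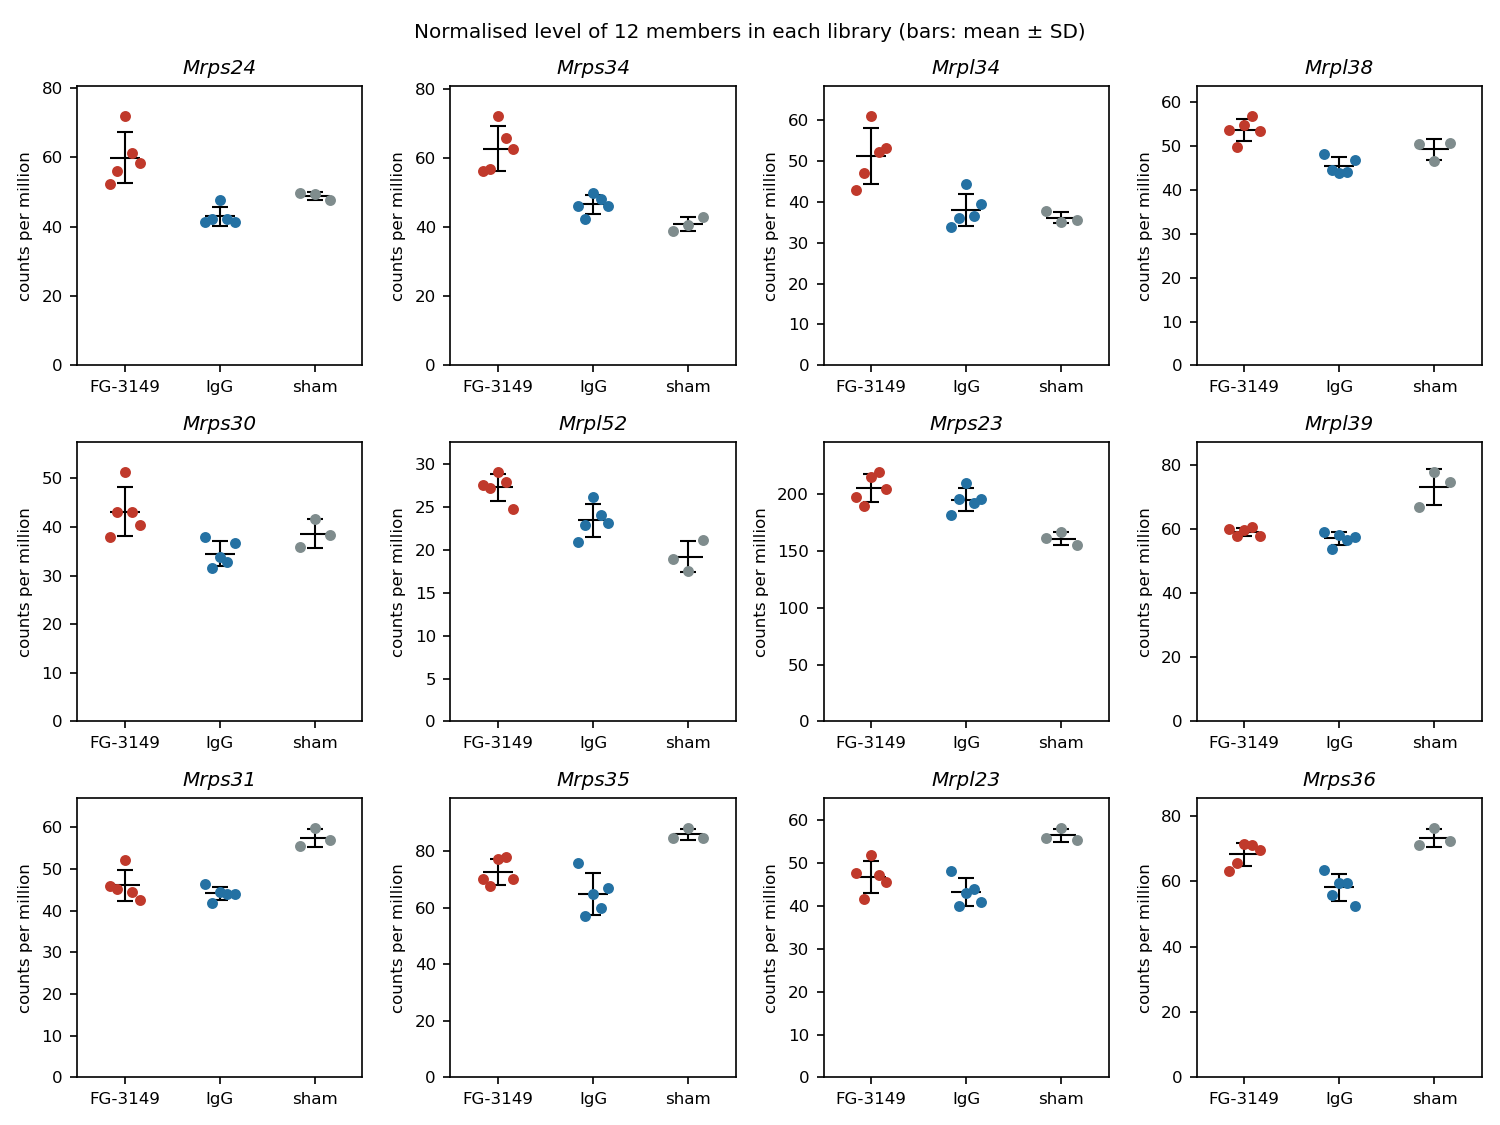
Normalised level in CPM (y axis, from 0) of 12 members in each library, by group; points are libraries and bars the mean ± SD. For Mrps24, Mrps34, Mrpl38 and Mrps30 every FG-3149 heart lies above every IgG heart, and for Mrpl39, Mrps31 and Mrpl23 both MI groups lie below sham.

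The libraries did not contribute evenly. Among the FG-3149 hearts, replicate 3 had the highest CPM for 58 of 76 members, and replicate 2 the lowest for 35. Rn45s took 2.86% of counts in FG-3149 replicate 3, the highest share of the 13 libraries, and 0.20% in FG-3149 replicate 2, the lowest. The order was not the same throughout. In FG-3149 replicate 1 Rn45s took 2.61%, and CPM was the highest for 2 members and the lowest for 21. In replicate 4 it took 1.92%, with the highest CPM for 14 and the lowest for 2. In replicate 5 it took 1.09%, with the highest CPM for 2 and the lowest for 18. Without replicate 3 the median log2 fold change of FG-3149 over IgG was 0.044 in the large and 0.061 in the small subunit, and without replicate 2 it was 0.108 in the large and 0.115 in the small subunit. The part of ribosomal RNA content in these values was not tested.

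FG-3149 was also compared with sham surgery, which shows where treated hearts stood relative to sham-operated ones. In FG-3149 hearts 12 members were higher and 12 were lower, 6 and 9 of 47 in the large subunit and 6 and 3 of 29 in the small subunit. Of all genes tested, 29.5% were called, 15.6% higher and 13.9% lower. The median log2 fold change was -0.034 in each subunit, against -0.001 over all genes. It moved with single libraries: without FG-3149 replicate 3 it was -0.067 in the large and -0.078 in the small subunit, and without FG-3149 replicate 2 -0.007 and -0.018. Without sham replicate 3 it was -0.008 and -0.016, without FG-3149 replicate 4 -0.058 in the large subunit, and in the small subunit -0.010 without FG-3149 replicate 5 and -0.018 without sham replicate 2. Without sham replicate 2 or without sham replicate 3, 9 large-subunit and 5 small-subunit members were called. Without FG-3149 replicate 2, 4 large-subunit members and 1 small-subunit member were lower. This comparison shares its sham libraries with that of IgG and sham and its FG-3149 libraries with that of FG-3149 and IgG, so the values below stand side by side and are no separate evidence.

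Mrps34 had the highest value, a log2 fold change of 0.62 ± 0.08 (SE), adjusted p = 3.23e-05 in FG-3149 over sham hearts, against 0.19 ± 0.08 (SE), adjusted p = 0.0726 in IgG over sham hearts. Mrpl52 had 27.5, 27.3, 29.1, 27.9 and 24.8 CPM in FG-3149 hearts, against 19.0, 17.5 and 21.1 CPM in sham hearts. All FG-3149 hearts lay above all sham hearts, with a log2 fold change of 0.51 ± 0.09 (SE), adjusted p = 0.000323. Mrpl34 followed with 0.50 ± 0.10 (SE), adjusted p = 0.00131. Its sham hearts had 37.8, 35.1 and 35.5 CPM, below every FG-3149 heart. The others that rose in the large subunit were Mrpl54 (0.36 ± 0.07 (SE), adjusted p = 0.00105), Mrpl53 (0.30 ± 0.07 (SE), adjusted p = 0.002), Mrpl43 (0.30 ± 0.07 (SE), adjusted p = 0.00546) and Mrpl20 (0.19 ± 0.06 (SE), adjusted p = 0.0368). Mrpl54 had 49.8, 47.8, 53.1, 46.5 and 46.0 CPM and Mrpl53 63.5, 66.3, 72.3, 70.5 and 63.0 CPM in FG-3149 hearts, above all sham hearts given before. Mrpl43, specific to mitochondria, had 46.9, 45.6, 55.6, 55.9 and 51.7 CPM in FG-3149 hearts, against 39.8, 41.9 and 42.7 CPM in sham hearts. Mrpl20, a bacterial homologue, had 49.4, 46.98, 52.4, 52.2 and 45.3 CPM in FG-3149 hearts, against 45.0, 43.8 and 41.0 CPM in sham hearts. Neither of these overlapped by group. The call of Mrpl20 was lost in 11 of 19 alternative analyses, among them those without any one sham heart or without FG-3149 replicate 1, 3 or 4. That of Mrpl54 was lost under both corrections for base composition described below.

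In the small subunit Mrps23 had a log2 fold change of 0.35 ± 0.06 (SE), adjusted p = 0.000303, with 198, 189.7, 215, 219.8 and 205 CPM in FG-3149 hearts and no overlap with sham. Mrps26, specific to mitochondria, had 32.5, 34.8, 44.1, 38.1 and 39.4 CPM in FG-3149 hearts, against 28.2, 28.9 and 32.3 CPM in sham hearts. Its groups were apart, and its log2 fold change was 0.34 ± 0.11 (SE), adjusted p = 0.0221. Mrps12, homologue of the bacterial protein of the decoding centre, had 36.3, 31.6, 38.0, 37.3 and 33.4 CPM in FG-3149 hearts, against 30.1, 26.1 and 28.3 CPM in sham hearts, also apart. Its log2 fold change was 0.33 ± 0.08 (SE), adjusted p = 0.00397. Mrps24 (0.29 ± 0.08 (SE), adjusted p = 0.0137) and Mrps10 (0.23 ± 0.08 (SE), adjusted p = 0.0348) completed the 6. Mrps10, the homologue of a bacterial protein of the head of the small subunit, had 24.8, 22.2, 22.9, 26.1 and 23.0 CPM in FG-3149 hearts, against 21.6, 19.2 and 19.8 CPM in sham hearts, without overlap. Mrps10 missed the threshold in 6 of 19 alternative analyses, 4 of them without sham replicate 2 or 3 or FG-3149 replicate 1 or 4. Mrps26 missed it without sham replicate 1 or 2, and Mrps24 without sham replicate 3 (adjusted p = 0.0542).

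Among the members that fell, Mrps31 had 45.9, 45.1, 52.2, 44.5 and 42.6 CPM in FG-3149 hearts, below all sham hearts. Its log2 fold change was -0.32 ± 0.07 (SE), adjusted p = 0.00132. Mrpl39 had 60.0, 57.8, 59.5, 60.5 and 57.7 CPM in FG-3149 hearts, also apart from sham, with a log2 fold change of -0.31 ± 0.06 (SE), adjusted p = 0.00068. Mrpl47 (-0.28 ± 0.10 (SE), adjusted p = 0.038), Mrpl23 (-0.27 ± 0.07 (SE), adjusted p = 0.00863), Mrpl1 (-0.25 ± 0.08 (SE), adjusted p = 0.022), Mrpl48 (-0.24 ± 0.06 (SE), adjusted p = 0.00615) and Mrpl50 (-0.24 ± 0.06 (SE), adjusted p = 0.00365) were next in the large subunit, followed by Mrpl42 (-0.19 ± 0.07 (SE), adjusted p = 0.0384), Mrpl14 (-0.18 ± 0.06 (SE), adjusted p = 0.027) and Mrpl28 (-0.18 ± 0.06 (SE), adjusted p = 0.0405). Mrpl47 had 23.8, 18.5, 21.5, 18.7 and 20.7 CPM, Mrpl23 47.8, 41.5, 52.0, 47.4 and 45.5 CPM and Mrpl1 39.4, 37.4, 47.1, 37.9 and 43.1 CPM in FG-3149 hearts, all below the sham hearts. Mrpl48, specific to mitochondria like Mrpl50, had 45.1, 45.4, 46.4, 48.8 and 49.9 CPM in FG-3149 hearts, against 57.5, 56.3 and 53.5 CPM in sham hearts. Mrpl50 had 74.0, 71.5, 75.4, 68.5 and 70.3 CPM in FG-3149 hearts, against 88.0, 83.5 and 83.0 CPM in sham hearts. The groups were apart for both. Mrps35 (-0.24 ± 0.08 (SE), adjusted p = 0.0228) and Mrps18a (-0.20 ± 0.07 (SE), adjusted p = 0.0393) were the other small-subunit symbols that fell. Mrps35 had 70.3, 67.5, 77.1, 78.1 and 70.3 CPM in FG-3149 hearts, apart from sham, and Mrps18a had 56.3, 51.8, 66.4, 63.7 and 62.8 CPM, overlapping with sham. Of the 12 calls of lower members, 8 were lost in at least 1 of 19 alternative analyses: Mrpl47 in 9, Mrpl42 and Mrpl28 in 7 each, Mrpl1 in 6, Mrpl14 and Mrps18a in 5 each, Mrps35 in 4 and Mrpl50 in 1. Leaving out sham replicate 2 or sham replicate 3 ended each of these calls but that of Mrpl50, and so did leaving out FG-3149 replicate 2. Without sham replicate 1 those of Mrpl47, Mrpl42, Mrpl28, Mrpl14 and Mrps35 were lost. Without FG-3149 replicate 1 those of Mrpl42, Mrpl28 and Mrps18a were lost, without replicate 4 those of Mrpl47, Mrpl42, Mrpl1 and Mrpl14, and without replicate 5 those of Mrpl47 and Mrpl28. For Mrps36 the log2 fold change was -0.11 ± 0.06 (SE), adjusted p = 0.226, and for Mrps22 -0.08 ± 0.10 (SE), adjusted p = 0.567, and neither passed the test. Libraries did not overlap for 14 members that were higher and 11 that were lower, against 16.6% and 15.6% of all genes tested.

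The other members with a role or place of their own passed the test in none of the 3 comparisons. Mrpl12 had 196, 202, 231, 206 and 204 CPM in FG-3149 hearts, 203, 193, 214, 195 and 199 CPM in IgG hearts and 203, 196 and 206 CPM in sham hearts. These ranges overlapped throughout, and the log2 fold change of IgG over sham was -0.00 ± 0.06 (SE), adjusted p = 0.96. Mrps18b had 32.5, 38.0, 37.6, 36.8 and 38.1 CPM in FG-3149 hearts, 31.9, 35.8, 32.9, 32.8 and 34.7 CPM in IgG hearts and 34.1, 34.1 and 30.8 CPM in sham hearts. Mrps18c had 29.4, 28.4, 32.3, 27.1 and 26.8 CPM in FG-3149 hearts, 28.8, 28.9, 30.9, 27.8 and 28.2 CPM in IgG hearts and 26.3, 31.9 and 30.1 CPM in sham hearts. Both overlapped between all groups. For FG-3149 over sham Mrps18b was called higher in 1 of 19 alternative analyses. Mrpl3 had 108, 115, 119, 119.6 and 107 CPM in FG-3149 hearts, 109, 93.6, 108, 106 and 104 CPM in IgG hearts and 112, 114 and 109.5 CPM in sham hearts. Mrpl44 had 57.0, 52.8, 68.7, 60.2 and 56.4 CPM in FG-3149 hearts, 57.2, 55.9, 59.5, 53.8 and 53.3 CPM in IgG hearts and 63.1, 62.9 and 62.9 CPM in sham hearts. For Mrpl3 and Mrpl44 every IgG heart lay below every sham heart, and FG-3149 hearts overlapped with both groups.

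The ETS core was unevenly spread over the members called in FG-3149 over sham. It was present in 7 of the 10 promoters of members that were higher in FG-3149 than in sham hearts, and in 2 of the 11 promoters of those that were lower. Of the promoters of all genes called, 13.7% of those higher and 16.5% of those lower held it. For IgG over sham hearts it was present in 3 of 3 promoters of members that rose and 4 of 20 of members that fell, against 13.6% and 15.9% of all genes called in those directions. Members not called held it in 15 of 46 promoters for FG-3149 over sham and 17 of 44 for IgG over sham. For FG-3149 over IgG it was present in 1 of 3 promoters of members that rose and 23 of 64 of members not called. These counts were made after the calls were known and carry no test. They rest on RefSeq starts, which for some members, among them Mrpl20 and Mrps21, lie away from those of the count table. The promoters themselves had a median GC content of 61.0% in the 10 members that were higher and 57.8% in the 11 that were lower in FG-3149 than in sham hearts.

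Base composition and length of the transcripts differed between the members called in each direction. In the 12 members higher in FG-3149 than in sham hearts the longest transcript had a median GC content of 54.5% and a median length of 900 bases. In the 12 lower members these were 47.4% and 1814 bases. Spearman's rho between GC content and the log2 fold change over the 76 members was 0.26 for FG-3149 over IgG, 0.35 for FG-3149 over sham and 0.31 for IgG over sham. Over 12189 genes it was 0.19, 0.25 and 0.16. A smooth trend with GC content, or with GC content and length, was removed from each library as 2 alternatives added after seeing the data. For FG-3149 over IgG the call of Mrpl38 was lost under both (adjusted p = 0.156 and 0.157) and the other 4 were kept. For FG-3149 over sham the calls of Mrpl54, Mrpl20, Mrpl1 and Mrpl47 were lost under both, those of Mrpl50 and Mrpl42 with GC content alone, and that of Mrps10 with GC content and length. The log2 fold change of Mrpl54 was then 0.190 (adjusted p = 0.051) and 0.104 (adjusted p = 0.226). Among higher members that stayed called, the log2 fold change with GC content and length removed was 0.381 for Mrps34, 0.314 for Mrpl52, 0.303 for Mrpl34, 0.202 for Mrpl53, 0.192 for Mrps12 and 0.185 for Mrps24. Among lower members it was -0.406 for Mrpl14, -0.337 for Mrpl28, -0.329 for Mrps18a and -0.144 for Mrpl50, so the first 3 lay further below 0 than without the correction. For IgG over sham the calls of Mrpl54, Mrpl35, Mrps17 and Mrps5 were lost under both, and that of Mrps22 with GC content alone.

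**Figure D3:**
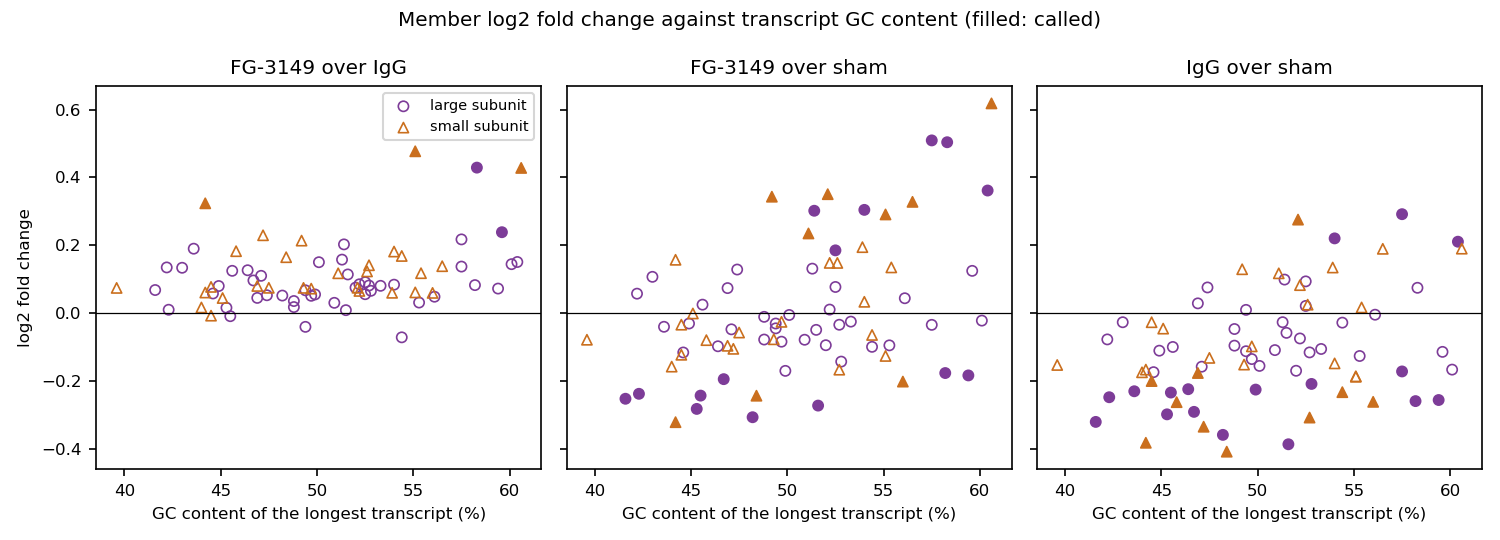
Log2 fold change (y axis) against the GC content of the longest transcript in percent (x axis) for the 76 members in 3 comparisons; circles are large-subunit and triangles small-subunit members, filled where called. In FG-3149 over sham the median GC content is 54.5% for called points above 0 and 47.4% for those below.

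The balance between the subunits was compared through the sum of their CPM in each library. Large-subunit members summed to 3388 ± 207 CPM in FG-3149 hearts, 3186 ± 103 in IgG hearts and 3476 ± 37.9 in sham hearts (SD, n = 5, 5 and 3). Small-subunit members summed to 1623 ± 111 CPM in FG-3149 hearts, 1483 ± 44.5 in IgG hearts and 1577 ± 13.0 in sham hearts. The ratio of large to small was 2.064 to 2.118 in FG-3149 hearts, 2.131 to 2.165 in IgG hearts and 2.188 to 2.228 in sham hearts, so the 3 groups did not overlap. With Mrps18a and Mrps30 counted in the large subunit and Mrps36 left out, the ratio was 2.379 to 2.43 in FG-3149 hearts, 2.444 to 2.492 in IgG hearts and 2.54 to 2.593 in sham hearts. A ratio of sums is led by the most abundant members. The mean log2 CPM of large minus small members, which weights genes equally, was 0.292 ± 0.021 in FG-3149 hearts, 0.336 ± 0.007 in IgG hearts and 0.341 ± 0.015 in sham hearts (SD), and on that scale the sham hearts overlapped with the IgG hearts and with FG-3149 replicate 1.

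**Figure D4:**
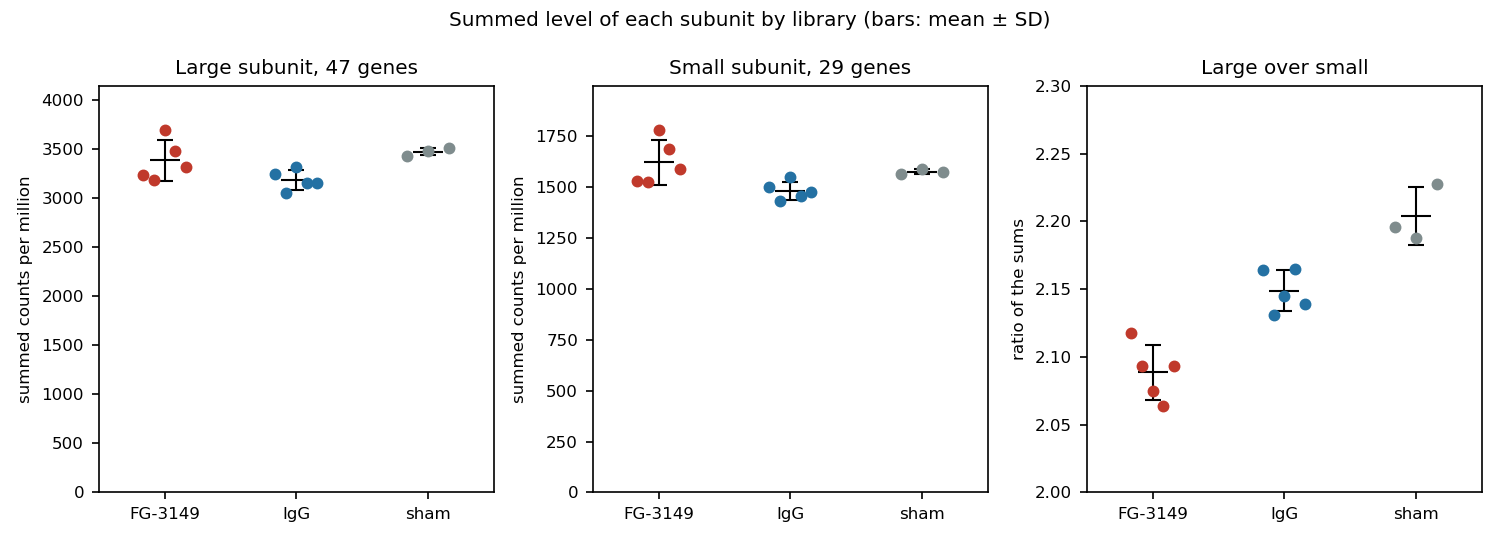
Summed level of the 47 large-subunit and 29 small-subunit members in CPM (left and middle, y axis from 0) and the ratio of both sums (right, y axis from 2.0 to 2.3) in each library, by group; bars are the mean ± SD. The ratio lies lowest in FG-3149 hearts and highest in sham hearts, with no overlap.

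The levels of members were also correlated pair by pair. Over the 2850 pairs of members the median Pearson correlation of log2 CPM across the 13 libraries was 0.43 (quartiles 0.13 and 0.63), and after the group means were taken out it was 0.42. The pairs share their libraries and depth, and no value for other genes is set beside them, so this is a description.

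Transcript shares were compared for the 5 members whose second annotated transcript held on average at least 1% of the gene's RPKM in some group. For Mrpl48 a transcript annotated as non-coding (NR_003559) held 29.2, 28.3, 33.5, 30.5 and 35.2% of the gene's RPKM in FG-3149 hearts, 35.5, 35.1, 45.1, 27.1 and 26.4% in IgG hearts and 25.5, 24.01 and 15.6% in sham hearts. The shares in both MI groups lay above those of sham hearts, with a 2-sided exact permutation p = 0.0357 for each and an adjusted p of 0.178 over the 15 comparisons made. For Mrpl15 the minor form NM_025300 held 10.7, 18.9, 10.7, 18.9 and 11.7% in FG-3149 hearts, 4.80, 19.8, 14.2, 3.84 and 6.24% in IgG hearts and 2.58, 4.03 and 3.88% in sham hearts. FG-3149 and sham hearts did not overlap (exact permutation p = 0.0357, adjusted p = 0.178), while IgG hearts spread over both. With 5 against 3 hearts 0.0357 is the smallest p that this test allows, so a single share could not pass the adjustment over 15 comparisons.

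Other genes of mitochondrial translation and of the respiratory chain were set beside the members. Of all genes tested, 15.9% were lower and 17.8% higher in IgG than in sham hearts. For FG-3149 over IgG 0.156% were lower and 0.916% higher. Ribosomal proteins with other symbols (7 genes) had 0 higher and 3 lower in IgG than in sham hearts, with a median log2 fold change of -0.12. The 3 were Ptcd3 (log2 fold change -0.25 ± 0.06 SE, adjusted p = 0.00528) and Dap3 (log2 fold change -0.23 ± 0.06 SE, adjusted p = 0.00717), both of the small subunit, and Ict1 (log2 fold change -0.20 ± 0.06 SE, adjusted p = 0.015), a release factor built into the large subunit. With FG-3149 over IgG, Gadd45gip1, of the large subunit, rose (log2 fold change 0.29 ± 0.06 SE, adjusted p = 0.0349) and 0 of the 7 fell. Assembly factors and enzymes that modify the ribosomal RNA (29 genes) had 1 higher and 12 lower in IgG than in sham hearts, with a median of -0.21. The lowest by p were Mterfd2 (log2 fold change -0.48 ± 0.08 SE, adjusted p = 0.000192) and Mterfd1 (log2 fold change -0.44 ± 0.08 SE, adjusted p = 0.000253), members of the mitochondrial transcription termination factor family that act in ribosome assembly. Of these 29 none passed the edgeR test for FG-3149 over IgG (5 had an unadjusted p under 0.05, against 1849 of 13434 genes tested).

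Translation factors (14 genes) had 0 higher and 4 lower in IgG than in sham hearts, among them the elongation factor Gfm1 (log2 fold change -0.18 ± 0.06 SE, adjusted p = 0.0207). The share called was 28.6%, against 33.7% of all genes tested. For FG-3149 over IgG these shares were 14.3% and 1.07%. With FG-3149 over IgG 2 rose, Tsfm, the exchange factor of the elongation factor Tu (log2 fold change 0.27 ± 0.07 SE, adjusted p = 0.0469), and Taco1, the activator of cytochrome oxidase subunit 1 synthesis (log2 fold change 0.24 ± 0.06 SE, adjusted p = 0.0469). Mitochondrial tRNA synthetases and the related amidotransferase (21 genes) had 0 higher and 9 lower in IgG than in sham hearts. In this list 2 genes had a log2 fold change above 0, the highest being Lars2 (1.309, not called). Lars2 ranged from 472.3 to 5787.6 CPM in FG-3149 hearts, 986.4 to 3473.7 in IgG hearts and 777.9 to 1019.9 in sham hearts. High Lars2 stood beside a high share of Rn45s. FG-3149 replicates 1 and 3 had 5787.6 and 5168.0 CPM of Lars2, and Rn45s took 2.61% and 2.86% of their counts. FG-3149 replicate 2 had 472.3 CPM and 0.20%. IgG replicates 5 and 4 had 3473.7 and 986.4 CPM, and 1.94% and 0.67%. The part of ribosomal RNA content in the values of Lars2 was not tested. Transcription and RNA processing of mitochondrial DNA (20 genes) likewise had 0 higher and 9 lower, led by Fastkd1 (log2 fold change -0.46 ± 0.07 SE, adjusted p = 0.000136) and Lrpprc (log2 fold change -0.31 ± 0.06 SE, adjusted p = 0.000566), a stabiliser of mitochondrial messengers. In these 2 lists 42.9% and 45.0% of genes were called for IgG over sham, against 33.7% of all genes tested. For FG-3149 over IgG the 2 lists had 0 calls in edgeR, with 4 and 2 genes at an unadjusted p under 0.05. Of all 13434 genes tested, 1849 had such a p.

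Respiratory subunits were set beside them. Of all genes tested, 33.7% were called for IgG over sham, 15.9% lower and 17.8% higher. For FG-3149 over IgG 0.916% were called higher and 0.156% lower. Of the 37 nuclear subunits of complex I tested, 25 were lower and 0 higher in IgG than in sham hearts, with a median of -0.24. Of the 35 subunits of complexes III, IV and V, 31 were lower and 0 higher, with a median of -0.30. With FG-3149 over IgG, 4 rose in each of these lists and 0 fell, with medians of 0.11 and 0.12. Ndufab1, the acyl carrier protein and a subunit of complex I, rose the most of the 4 in its list (log2 fold change 0.64 ± 0.10 SE, adjusted p = 0.00534), and Cox5a led the other list by p (log2 fold change 0.36 ± 0.06 SE, adjusted p = 0.00417). Of the cytosolic ribosomal proteins, 18 of 77 were higher and 1 was lower in IgG than in sham hearts (24.7% called), with a median of 0.07. With FG-3149 over IgG 4 of the 77 rose and 0 fell, at a median of 0.01.

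Among 12 regulators of mitochondrial biogenesis, Ppargc1a, the coactivator of that programme, was lower in IgG than in sham hearts (log2 fold change -0.39 ± 0.08 SE, adjusted p = 0.00146). So were the nuclear receptor Esrrg (log2 fold change -0.34 ± 0.09 SE, adjusted p = 0.00692) and Gabpa, the subunit of GABP that binds the ETS core (log2 fold change -0.27 ± 0.07 SE, adjusted p = 0.0101). Myc was higher (log2 fold change 1.49 ± 0.20 SE, adjusted p = 2.68e-05). Of the 12, 41.7% were called for IgG over sham, against 33.7% of all genes tested. None of the 12 passed the edgeR test for FG-3149 over IgG, and 2 had an unadjusted p under 0.05, against 1849 of 13434 genes tested. Transcripts encoded in mitochondrial DNA were not analysed here.

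**Figure D5:**
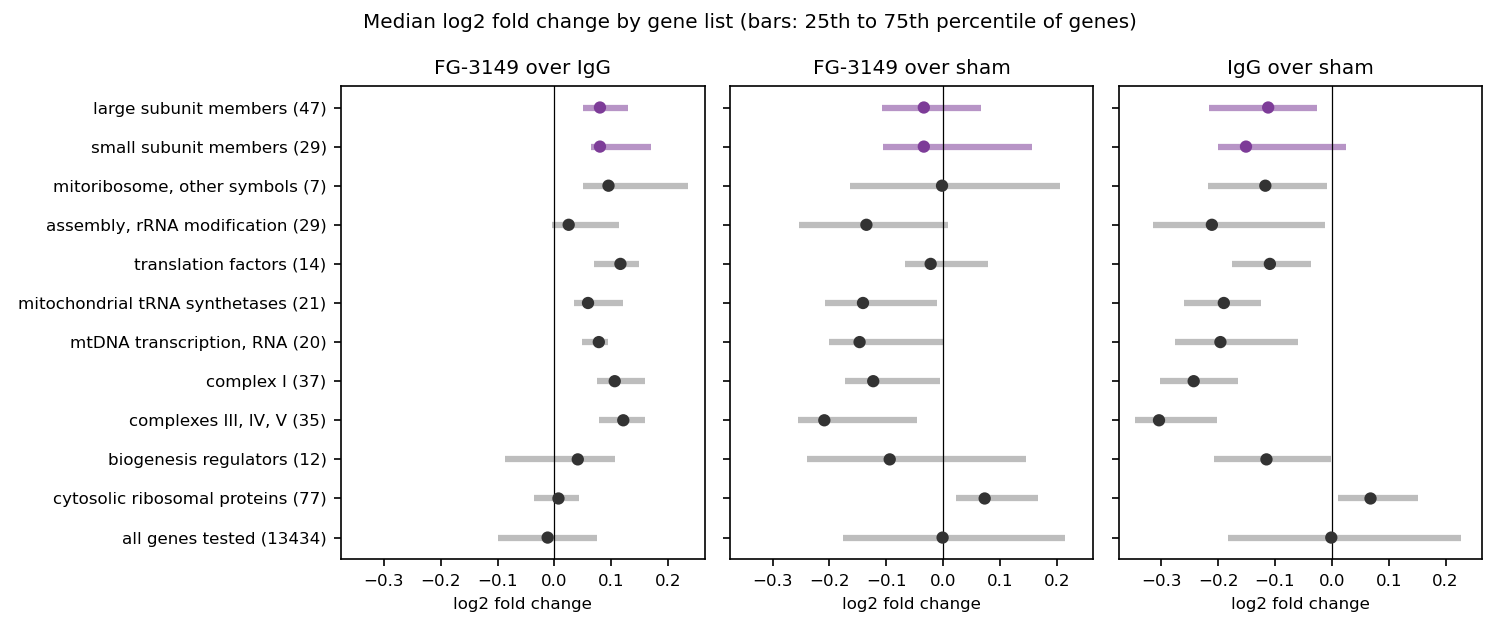
Median log2 fold change (points) and 25th to 75th percentile of genes (bars) of the members and of other lists in 3 comparisons, with the number of genes tested in brackets. In IgG over sham the respiratory complexes lie lowest and cytosolic ribosomal proteins to the right of 0; in FG-3149 over IgG the lists of mitochondrial genes lie to the right of all genes tested.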

How the data were processed

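In all, 13 RNA sequencing libraries (FG-3149, n = 5, IgG, n = 5, and sham, n = 3) were analysed, each called a heart in the text. Per the labels' protocols, stranded poly(A) libraries were sequenced as single reads on one flow cell, and per the submitters' processing notes the build is mm10. Aligner, counter and strand setting are not given in the sources used here. Estimated counts per gene were deposited, of which 79.4% lie within 0.01 of a whole number, together with the authors' RPKM per transcript. The estimated counts were rounded, and 379 repeated symbols were dropped. All 13 libraries entered one fit (edgeR 4.0.16, R 4.3.3, TMM scaling, filterByExpr, robust quasi-likelihood) with Benjamini-Hochberg adjustment over 13434 genes. A member was called at an adjusted p under 0.05. Fold changes of the fit and their standard errors, derived from the F statistic, are on the log2 scale. Log2 CPM used a prior count of 2. CPM used TMM-scaled totals, and deposited RPKM were summed over a gene's transcripts. The design text speaks of animals, but the labels do not tie each library to one, so p-values measure the spread between libraries. Transcript shares were compared by an exact permutation test (scipy 1.17.1).

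Members, gene lists, tests and alternatives were chosen with earlier results of these data known. Values per library are given for the members with the lowest and highest log2 fold change among those called, the smallest p for FG-3149 over IgG, extreme RPKM, or a known role outside the ribosome or in cardiomyopathy, and for other lists the genes with the smallest p. Alternatives were DESeq2 1.42.0, limma 3.58.1 on log2 values, other scalings, filters and pseudocounts (1 and 0.1), leaving out each library, a replicate block, and a correction for GC content and length.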

Additional observations from a re-analysis of the deposited data

Results flagged for a closer look

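In groups of 5 hearts, 168 sets of values were screened for a single heart far from the other 4, and 17 were found. Chance alone gives about 1 in 20 sets, so several of these are of the kind that chance gives.

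Among FG-3149 hearts, replicate 3 had 81.2 CPM of Mrpl16, against 72.0 to 73.4 CPM in the other 4. Replicate 4 had 31.4 CPM of Mrpl40, against 27.5 to 28.2 CPM. Replicate 1 had 32.5 CPM of Mrps18b, against 36.8 to 38.1 CPM. These 3 values lie outside a narrow range of the remaining hearts.

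Among IgG hearts, replicate 3 was the high one for Mrpl2 (65.5 CPM, others 59.2 to 60.4), Mrpl36 (36.9, others 31.0 to 32.2) and Mrpl54 (47.2, others 42.8 to 43.2). It was also high for Mrps14 (50.1 CPM, others 46.0 to 47.02) and Mrps24 (47.8, others 41.2 to 42.3). Replicate 1 was high for Mrpl35 (48.9 CPM, others 40.2 to 42.0) and Mrpl48 (52.1, others 45.5 to 47.3). Replicate 2 was the low one for Mrpl18 (109.8 CPM, others 123.4 to 127.1), Mrpl20 (43.2, others 46.5 to 47.4) and Mrpl3 (93.6, others 104.4 to 108.6). Replicate 4 was low for Mrps5 (37.4 CPM, others 42.5 to 43.8).

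In the shares of transcripts, 3 further hearts stood apart. In IgG replicate 5 the form NM_001146211 of Mrps10 held 48.3% of the gene's RPKM, against 3.74% to 8.88% in the other IgG hearts. The form NM_001166031 of Mrps2 held 18.8% in FG-3149 replicate 1, against 3.70% to 7.42% in the other FG-3149 hearts. The same form held 33.0% in IgG replicate 1, against 4.98% to 12.2% in the other IgG hearts.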

How the results depend on the processing

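Of the 56 calls of members, 27 held under every alternative run (2 of 5 for FG-3149 over IgG, 11 of 24 for FG-3149 over sham, 14 of 27 for IgG over sham). Leaving out each library in turn gave 0 to 3 large-subunit calls for FG-3149 over IgG (all higher; 0 without IgG replicate 2, FG-3149 replicate 4 or replicate 5) and 2 to 4 small-subunit calls (all higher). For FG-3149 over sham it gave 9 to 15 large-subunit calls (5 to 6 higher, 4 to 10 lower) and 5 to 11 small-subunit calls (4 to 8 higher, 1 to 5 lower). For IgG over sham it gave 10 to 17 large-subunit calls (0 to 3 higher, 10 to 15 lower) and 6 to 10 small-subunit calls (1 to 2 higher, 5 to 9 lower). Large-subunit calls for FG-3149 over IgG numbered 1 with library totals, log2(RPKM + 0.1), only the 2 groups, and both corrections for GC content. Small-subunit members lower for FG-3149 over sham numbered 5 with GC and length removed. Small-subunit members higher for IgG over sham numbered 3 with library totals and both RPKM fits, and 2 with only the 2 groups. The cause was not tested.

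No pairing of the libraries by replicate number was seen. Deviations of 11 same-numbered pairs correlated at -0.042 to 0.178, and those of differently numbered pairs at -0.197 to 0.185. With groups of 3 to 5 libraries these values cannot exclude a pairing. With the replicate number as a block, FG-3149 over IgG had 2 large-subunit and 2 small-subunit calls, FG-3149 over sham 12 and 9, and IgG over sham 18 and 7. Of the small-subunit calls for IgG over sham under the block, 6 were lower.

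Values near 0 changed sign. Mrpl12 in IgG over sham was 0.012 with library totals, 0.011 in both RPKM fits, 0.009 under the block and -0.028 to 0.011 without single libraries. In FG-3149 over sham it was -0.028 and -0.062 with the GC corrections. Mrps18b in IgG over sham was -0.007 and -0.015 with the GC corrections and -0.021 to 0.049 without single libraries. Mrps18c was 0.024 and 0.001 with the GC corrections and -0.051 to 0.018 without single libraries in FG-3149 over IgG. In FG-3149 over sham it was 0.035 and 0.012, 0.011 under the block and -0.108 to 0.030 without single libraries. In IgG over sham it was 0.011 with both corrections, 0.018 under the block and -0.101 to 0.037 without single libraries. Over all genes, calls for FG-3149 over IgG were 123 higher and 21 lower, against 220 and 58 with DESeq2, 76 and 7 with only the 2 groups and 74 and 28 with library totals.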
